A study of Homo sapiens with 6 samples.

Results

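UBE2MP1 is a processed pseudogene of UBE2M, the gene of a NEDD8-conjugating enzyme. Rows of the deposited table with the symbol UBE2MP1 or UBE2M were looked for, and 1 of the 2 genes was found among 7682. UBE2MP1 has a row, whereas no row carries the symbol UBE2M, so the parent's own values were not analysed here and the pair could be compared in sequence only. UBE2MP1 was chosen by its half-lives, which differed most between the conditions, so every difference of this row between MOV10 siRNA and mock is given as a description, without a test. The cells were HEK293, a human embryonic kidney line, either mock transfected or transfected with an siRNA against MOV10, an RNA helicase, and both received 700 µM of the uridine analogue 4-thiouridine (4sU), a label that newly made RNA takes up, over 60 min. Poly(A)+ libraries were made from total RNA, from the 4sU-labelled RNA bound to streptavidin beads, and from the unlabelled flow-through. The labels list 6 samples, 1 for each fraction and condition, and the table holds 2 replicate columns for each of these 6 groups. Whether the replicate columns came from separate cultures is not stated, so p-values measure only the spread between these columns.

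UBE2M, also called UBC12, accepts the ubiquitin-like protein NEDD8 from its activating enzyme and passes it to cullins, the scaffolds of the cullin-RING ubiquitin ligases. Attachment of NEDD8 switches these ligases on, and the COP9 signalosome removes it again. A processed pseudogene arises when a spliced mRNA is copied back into the genome, so it lacks introns and usually does not encode a working protein. A transcript with such a copy shares long stretches of sequence with it, and short reads from the shared stretches can be placed at either locus.

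In the GENCODE v29 annotation of GRCh38, UBE2MP1 (ENSG00000261461.1) is a processed pseudogene on the minus strand of chromosome 16, from 35169692 to 35170241. UBE2M (ENSG00000130725.7) is a protein-coding gene on the minus strand of chromosome 19, from 58555712 to 58558960. The authors' alignment used hg18, and the table itself holds no coordinates. The annotated UBE2MP1 transcript of 550 bases aligned to the main UBE2M transcript without a gap, from base 2 to base 551 of its coding sequence of 552 bases. Of these 550 bases, 534 were identical (97.1%) and 16 were substitutions. The stretch covers coding parts of all 6 exons of UBE2M and crosses its 5 exon junctions, which are continuous in the pseudogene. The first substitution, G42T counted from the first base of UBE2MP1, turns codon 15 of the UBE2M reading frame into the only stop codon that comes before the last codon. The bases around it are shown because they mark the copy as one that cannot encode the whole enzyme, with the differing bases in capitals (bases 28 to 56 of UBE2MP1):
UBE2M: agaagaaggaggagGagtcggcgggCggc
UBE2MP1: agaagaaggaggagTagtcggcgggAggc

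The substitutions were unevenly spread, with the longest identical run at 130 bases. No stretch of 30 bases held more than 4 differences, and those with 4 all lie in the part copied from the last exon. The first of them is printed to show where a read could tell the pair apart (bases 468 to 497, differing bases in capitals):
UBE2M: cggcGgctgttTgagcagaacgtgcagcGC
UBE2MP1: cggcAgctgttGgagcagaacgtgcagcCA
The libraries were sequenced for 100 cycles. Of the 451 windows of 100 bases in UBE2MP1, 51 (11.3%) were identical in UBE2M, 111 (24.6%) differed at 1 base and 94 (20.8%) at 2 bases. The remaining 195 windows differed at 3 or more bases, with at most 8. The sources used here do not say how reads that match both loci were assigned, so the values of the UBE2MP1 row may hold reads of UBE2M, and their share was not tested.

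**Figure D1:**
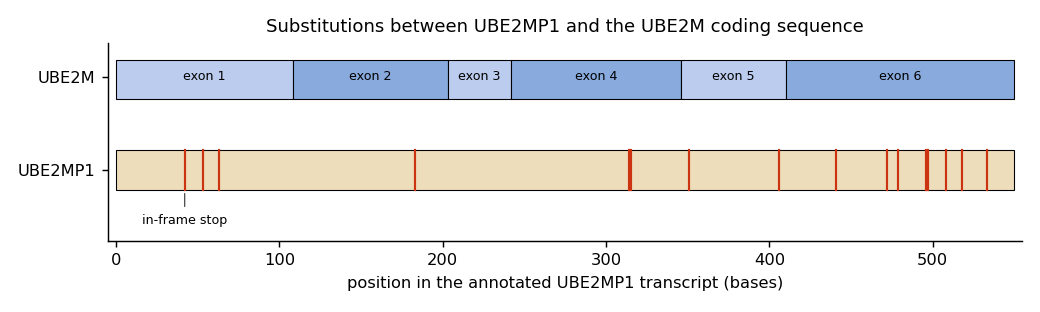
Map of the aligned stretch, with position in the annotated UBE2MP1 transcript in bases on the x axis. Blue boxes are the coding parts of the UBE2M exons, and the 16 red lines in the lower bar are the substitutions in UBE2MP1, of which the first makes an in-frame stop codon.

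UBE2MP1 was lower after MOV10 siRNA in total and flow-through RNA and, by a smaller margin, in labelled RNA. Its total RNA value was 132.7 and 149.8 in the mock columns and 37.96 and 33.33 in the siRNA columns. The group means were 141.2 ± 12.1 and 35.65 ± 3.27 (SD, n = 2 columns), a 3.96-fold lower level. The 2 siRNA columns lay below both mock columns, with no overlap. The row was chosen for its difference, and how many other genes are separated in this way was not counted, here or in the other fractions. In flow-through RNA, which holds the transcripts made before the label was added, the mock values were 210.1 and 215.5 and the siRNA values 40.03 and 38.81. These means of 212.8 ± 3.86 and 39.42 ± 0.863 (SD, n = 2 columns) differ 5.40-fold, and again the groups did not overlap. In labelled RNA, which holds the transcripts made within the labelling hour, the mock columns of UBE2MP1 read 47.69 and 42.67 and the siRNA columns 33.95 and 36.43. The labelled means were 45.18 ± 3.55 and 35.19 ± 1.75 (SD, n = 2 columns), 1.28-fold lower after siRNA, and here too both siRNA columns were the lower ones. The authors' half-lives of the UBE2MP1 row were 887.6 and 1040 min for mock cells, compared with 299.2 and 339.3 min for siRNA-treated cells. The unit is not named in the table and was taken as minutes, because half-lives recomputed with a labelling time of 60 min were of the same order. The recomputed medians over genes, 504.4 to 587.2 min, were all lower than the deposited ones, 656.6 to 900.0, so the deposited scale was not matched exactly. The deposited median of 900.0 is that of siRNA replicate 2, against 656.6 and 713.4 in mock and 668.1 in siRNA replicate 1. Recomputed, siRNA replicate 2 had a median of 533.0. Half-lives in minutes are printed without centring, so those of siRNA replicate 2 carry this higher level. Recomputed, the mock half-lives of UBE2MP1 were 1111 and 1342 min, and the siRNA half-lives 320.1 and 309.5 min.

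**Figure D2:**
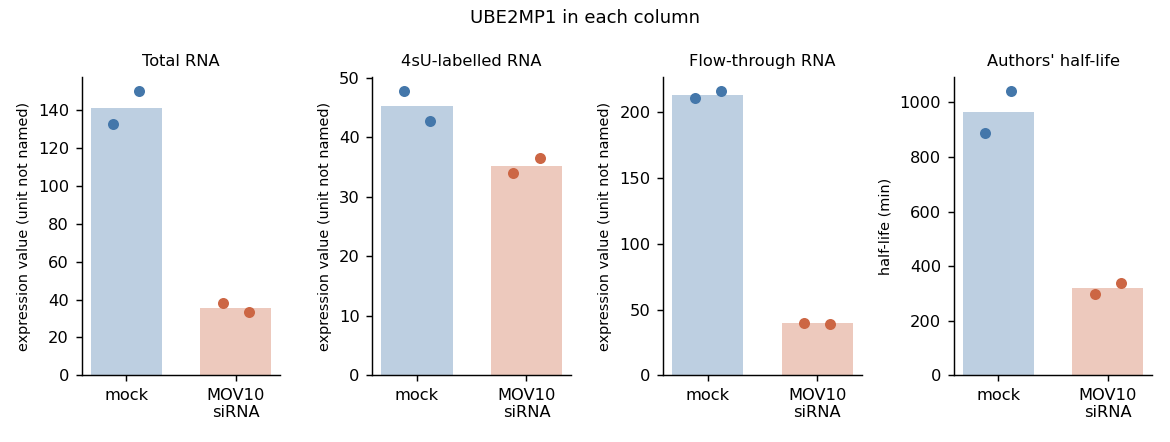
UBE2MP1 in the 3 RNA fractions (expression value, unit not named by the authors) and its half-life as computed by the authors (min). Points are the 2 replicate columns of each condition and bars their mean; the gap between mock and siRNA is 3.96-fold in total, 1.28-fold in labelled and 5.40-fold in flow-through RNA.

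Set in order, the highest of the 6 group means of UBE2MP1 was flow-through RNA in mock cells, followed by total RNA and then labelled RNA in mock cells. Flow-through, total and labelled RNA after siRNA came last, at 39.42, 35.65 and 35.19. The columns of the last pair overlapped, so total and labelled RNA after siRNA did not differ beyond their spread. How the fractions were normalised is not stated, so these levels were not taken to compare amounts of RNA between fractions, and a ratio between fractions can only be read against that of other genes.

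The balance between labelled and flow-through RNA of UBE2MP1 lay on opposite sides of the median gene in the 2 conditions. All positions refer to the 6064 genes with a mean total value of 5 or more in both conditions. In mock cells, the ratio of labelled to flow-through RNA was 0.227 and 0.198, and 20.2% and 16.8% of genes had a lower one. After siRNA, the ratio was 0.848 and 0.939, and 75.2% and 78.1% of genes lay lower. On the log2 scale, the difference of UBE2MP1 from the median gene was -0.89 and -1.02 in the mock columns and 0.89 and 1.03 in the siRNA columns. A low ratio marks a transcript with little new RNA, so the row ranked with slowly replaced transcripts in mock cells and with quickly replaced ones after siRNA. The ratio of flow-through to total RNA went the opposite way, from 1.58 and 1.44 in mock, higher than in 88.5% of genes in either column, to 1.05 and 1.16 after siRNA, higher than in 18.0% and 28.0%. The authors' half-lives are computed from these fractions and are not a separate measurement.

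Relative to the median gene, the log2 change of UBE2MP1 was -1.94 in total RNA, -0.49 in labelled RNA, -2.39 in flow-through RNA and -1.79 in half-life, each from 2 siRNA and 2 mock columns. Changes of expression are differences of mean log2(value + 1), a scale that understates the change of low genes. Among the 6064 genes these changes ranked 2nd from the lowest in total RNA, 179th in labelled RNA, and lowest in both flow-through RNA and half-life. The half-life rank restates how the row was chosen, and the ranks in the fractions are not independent of that choice. The central 90% of genes, from the 5th to the 95th percentile, lay between -0.45 and 0.35 in total RNA, -0.41 and 0.35 in labelled RNA, -0.66 and 0.46 in flow-through RNA, and -0.45 and 0.37 in half-life. ZCCHC12, a zinc finger gene, had the larger change in total RNA (-2.39), and in flow-through RNA it came next after UBE2MP1 (-2.32). In labelled RNA ZCCHC12 was at -1.69, further from the median gene than UBE2MP1. MOV10 mRNA, the target of the siRNA, had a total RNA mean of 13.8 ± 1.03 without and 3.59 ± 0.0828 with the siRNA (SD, n = 2 columns). MOV10 was 3.70-fold lower in flow-through and 1.19-fold lower in labelled RNA, and the authors list half-lives for it of 2115 and 1985 min (mock) and of 732.1 and 1012 min (siRNA). With a siRNA mean below the minimum of 5, MOV10 is not among the 6064 genes. Its labelled values were low, from 2.55 to 3.20, where the lowest expression value of any gene is 1.00.

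Of the 6064 genes, 5 had a profile over the 12 expression columns most like that of UBE2MP1, by the root mean square difference of log2 values after each gene was centred on its own mean. In order they were LAPTM4A (0.33), UBQLN1 (0.36), MBNL1 (0.37), BTBD1 (0.39) and HMGA2 (0.41), against a median of 1.00 over all genes. The likeness covers the difference for which UBE2MP1 was chosen and is a description. LAPTM4A, a lysosomal transmembrane protein gene, had mock values of 52.97 and 55.51 and siRNA values of 26.30 and 22.31 in total RNA. Its labelled values were 24.31 and 21.19 against 17.59 and 17.53, and its flow-through values 81.08 and 77.86 against 24.79 and 24.63. As in UBE2MP1, the groups of LAPTM4A did not overlap in any fraction, which its choice by likeness favoured, and the change was smallest in labelled RNA. UBQLN1, whose product carries ubiquitinated proteins to the proteasome, had mock half-lives of 1316 and 1350 min and siRNA half-lives of 655.6 and 822.9 min. MBNL1, a splicing regulator, stood at 24.14 and 23.86 in the mock and 6.10 and 5.54 in the siRNA columns of flow-through RNA. BTBD1, a BTB-domain protein gene, had total RNA values of 58.67 and 57.61 against 24.22 and 23.12, and HMGA2, a chromatin protein gene, 21.96 and 20.74 against 9.12 and 8.54. The half-life changes of these 5 genes ran from -1.47 in MBNL1 to -0.83 in HMGA2, all nearer to the median gene than that of UBE2MP1.

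**Figure D3:**
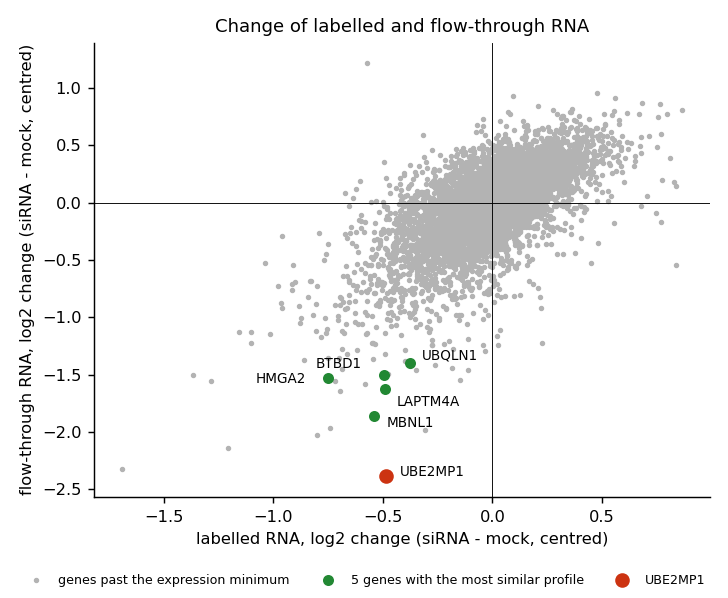
Log2 change (siRNA minus mock, relative to the median gene) of labelled RNA on the x axis and of flow-through RNA on the y axis, 1 point per gene past the expression minimum (6064 genes). UBE2MP1 (red) has the lowest flow-through change, -2.39, at a labelled change of -0.49, and the 5 genes with the most similar profile (green) lie between -1.86 and -1.40 in flow-through RNA.

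Genes of the NEDD8 pathway changed in both directions around the median gene. In total RNA, the changes of the genes for NEDD8 and its transfer were between -0.11 and 0.23, beside -1.94 in the UBE2MP1 row. Of 53 genes in 4 lists, 37 had a row and 32 passed the expression minimum. By limma with Benjamini-Hochberg adjustment over all 6064 genes at 0.05, total RNA of 8 of the 32 (25.0%) fell and that of 6 rose, where 14.3% and 12.9% of all genes were called (27.2% in either direction). Half-life fell in 4 and rose in 1, where 4.27% and 1.88% of all genes were called (6.15% in either direction). In labelled RNA 2 rose and 2 fell, against 9.88% and 11.5% of all genes (21.4% in either direction). Flow-through RNA of 8 genes rose and of 6 fell, against 31.7% and 26.8% (58.6% in either direction). The median change of the 32 genes was -0.02 in total RNA and 0.02 in half-life, close to that of all genes tested (0.01 and 0.00). A median does not show changes that go both ways. In either direction, 14 of the 32 were called in total RNA, beside 27.2% of all genes. In half-life 5 were, beside 6.15%. Without centring on the median gene, 0 of the 32 passed in half-life by limma (3 at an unadjusted 0.05), 1 rose and 5 fell in total RNA, and 6 rose and 0 fell in labelled RNA (14 at an unadjusted 0.05 by limma, the only tool run), since the median gene of labelled RNA was itself 0.14 higher after siRNA.

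Of the 12 genes for NEDD8 and the enzymes that attach it, 6 had a row. In half-life 0 of these passed by limma, close to the share of all genes (6.15%). The gene of the modifier, NEDD8, had total RNA values of 136.1 and 144.1 in the mock and 136.0 in both siRNA columns (-0.02 on the log2 scale, limma, Benjamini-Hochberg adjusted p = 0.814). Labelled RNA of NEDD8 rose from 23.86 and 19.91 to 29.69 and 33.98 (0.39, SE 0.09, limma, Benjamini-Hochberg adjusted p = 0.0118). Its flow-through RNA rose as well, from 215.9 and 222.3 to 285.9 and 277.8 (0.38, SE 0.04, limma, Benjamini-Hochberg adjusted p = 0.000657). Total RNA of NEDD8 did not rise with these fractions, whose normalisation is not stated, so a higher amount of NEDD8 RNA was not read from them. In flow-through RNA 1 of the 6 genes rose and 0 fell, where 31.7% and 26.8% of all genes did. UBE2F, the gene of the other NEDD8-conjugating enzyme, was at 19.59 and 22.11 against 20.31 and 20.07, and the siRNA columns lay between the mock columns. The total RNA of UBE2F differed by -0.02 on the log2 scale (limma, Benjamini-Hochberg adjusted p = 0.850), and its half-life by 0.09. RBX1, the RING subunit that brings the conjugating enzyme to most cullins, was at 178.6 and 190.3 against 169.2 and 167.5 (-0.11, SE 0.06, limma, Benjamini-Hochberg adjusted p = 0.173). Of the DCUN1D genes, which encode co-E3 factors of cullin neddylation, DCUN1D2 rose in total RNA from 23.99 and 29.02 to 30.39 and 31.01 (0.23, limma, Benjamini-Hochberg adjusted p = 0.0453). Labelled RNA of DCUN1D4 fell by 0.37 on the log2 scale (limma, Benjamini-Hochberg adjusted p = 0.0182), while its total RNA change was 0.08. DCUN1D5 was at 0.04 in total RNA and -0.31 in half-life and passed in neither.

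Among the substrates and the genes that take NEDD8 off again, COPS3, COPS2 and CUL4A fell in both total RNA and half-life. Without centring, the half-life calls of these 3 genes and of KEAP1 were lost (limma, Benjamini-Hochberg adjusted p = 0.891 for each), as was that of KLHL12 (0.839). COPS3, a COP9 signalosome subunit, went from 138.8 and 145.5 to 71.82 and 72.44 in total RNA (-0.95, SE 0.06, limma, Benjamini-Hochberg adjusted p = 2.93e-07). The mock half-lives of COPS3 were 785.3 and 960.9 min and its siRNA half-lives 518.5 and 651.1 min (-0.77, limma, Benjamini-Hochberg adjusted p = 0.0109). Labelled RNA of COPS3, at 74.74 and 63.04 against 71.81 and 73.27, overlapped between the conditions. COPS2, another subunit, went from 37.69 and 36.30 to 23.58 and 24.24 in total RNA (-0.59), and COPS5, the catalytic subunit, from 36.01 and 33.73 to 25.36 and 25.46 (-0.42). COPS6 and COPS8 also fell in total RNA, both by 0.23 on the log2 scale, so that of the 10 genes of this list past the minimum 5 fell and 0 rose in total RNA by limma, where 14.3% of all genes fell and 12.9% rose. Without centring, the calls of COPS6 and COPS8 were lost (limma, Benjamini-Hochberg adjusted p = 0.0763 and 0.084). COPS6 also did not pass in flow-through (-0.05) or labelled RNA (0.10). In half-life 2 of the 10 passed, where 6.15% of all genes did. They were COPS3 and COPS2 (-0.57, limma, Benjamini-Hochberg adjusted p = 0.0168). Of the 5 cullin genes past the minimum, CUL4A fell from 32.60 and 32.68 to 20.67 and 17.93 in total RNA (-0.71), with mock half-lives of 2548 and 2683 min and siRNA half-lives of 1708 and 2201 min (-0.63). CUL1 and CUL5 rose in total RNA, by 0.23 and 0.28. In flow-through RNA 3 of the 5 cullin genes rose and 1, CUL4A, fell by limma, where 31.7% and 26.8% of all genes did. With 1 column left out, the flow-through change of CUL1 ran from 0.44 to 0.50, that of CUL5 from 0.24 to 0.33, and that of CUL4A stayed at -0.50. Among the 11 adaptor genes, KEAP1, the cullin-3 adaptor for the transcription factor NRF2, fell from 20.42 and 24.06 to 13.07 and 12.02 in total RNA (-0.76). Half-lives of KEAP1 were 268.7 and 300.4 min against 152.0 and 216.1 min (-0.84, limma, Benjamini-Hochberg adjusted p = 0.0068). AMBRA1 fell in total RNA as well (-0.29), and VHL, KLHL12 and DTL rose (0.29, 0.22 and 0.22), KLHL12 also in half-life (0.50, limma, Benjamini-Hochberg adjusted p = 0.0447). The fractions of VHL differed in sign. Its labelled RNA fell (-0.29, limma, Benjamini-Hochberg adjusted p = 0.0197), and its flow-through change was -0.11. Without centring, the labelled change of VHL was -0.15 and did not pass. Of the 14 calls in total RNA, those of COPS2, COPS3, COPS5, CUL4A and KEAP1 passed with each of the 4 columns left out in turn, and the other 9 did not. The count in total RNA was 7 without mock replicate 2, 5 without siRNA replicate 1 and 6 without siRNA replicate 2. Of the 4 calls in labelled RNA, which include those of NEDD8 and DCUN1D4, 0 passed with every column left out, and the count was 1 without mock replicate 2 and 2 without siRNA replicate 2. Of the 5 half-life calls 0 did so, and 1 to 3 pathway genes passed with 1 column left out (3 without siRNA replicate 1, 3 without siRNA replicate 2, 1 without mock replicate 1 and 1 without mock replicate 2).

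**Figure D4:**
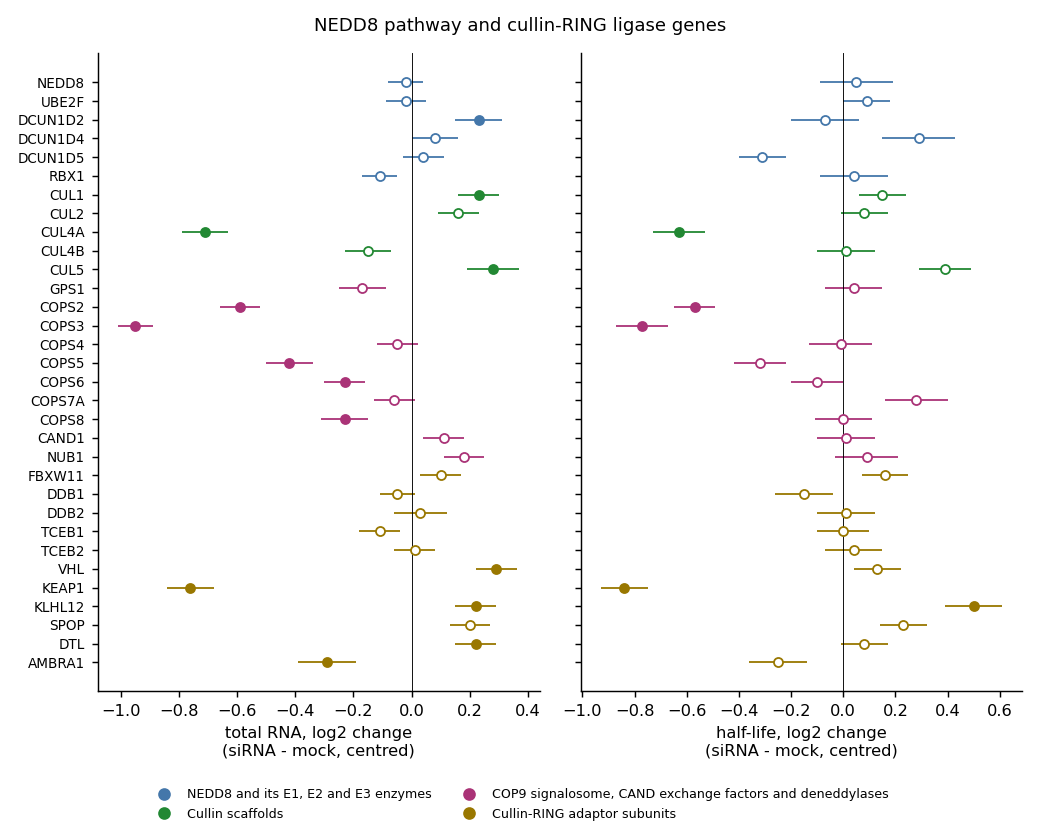
Log2 change (siRNA minus mock, relative to the median gene) of total RNA (left) and half-life (right) for the 32 pathway genes past the expression minimum, coloured by list. Bars are the SE of the limma fit and filled points passed at an adjusted p of 0.05; COPS3 is lowest in total RNA at -0.95 and KEAP1 in half-life at -0.84.

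The 3' UTR of the parent transcript holds a 7-base sequence, TACTGCA, which a search over the half-lives of this same table had found before. It is shown here because the annotated UBE2MP1 transcript ends with the coding part and has no 3' UTR in which it could be looked for. The 3' UTR of UBE2M is 377 bases long in GENCODE v29, and TACTGCA stands once in it, at bases 371 to 377, the last of the annotated transcript. The capitals mark the match (bases 360 to 377 of the 3' UTR):
UBE2M: aaggggaatgtTACTGCA
On the transcript strand, TACTGCA was found 0 times in the rest of UBE2M and 0 times in the 550 bases of UBE2MP1. Its reverse complement, TGCAGTA, stands once in each, in the shared coding stretch. Of the 5664 genes past the minimum with an annotated 3' UTR, 665 (11.7%) held TACTGCA, and of the 556 with a 3' UTR of 300 to 500 bases 12 did (2.16%). Genes with the sequence had longer 3' UTRs, with a median of 3198 bases against 1368 in all. COPS3 and COPS2 held it once each, as did UBE2F, which did not pass in any fraction. CAND1, a cullin exchange factor gene, held 2 copies and did not pass either, with changes of 0.11 in total RNA and 0.01 in half-life. CUL4A and KEAP1 held it 0 times. Of the 5 genes with a profile most like UBE2MP1, UBQLN1 and MBNL1 held it and LAPTM4A, BTBD1 and HMGA2 did not. A match is a description of the letters, and whether anything acts at it was not tested.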

How the data were processed

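The submitters' processing notes name TopHat2 2.06 and hg18. The table deposited by the authors holds 12 columns of expression signal (its unit and the tool behind it are not given in the sources used here) and 4 columns of half-lives that the authors computed by a published method, per the labels' protocols. All expression values are 1.00 or more. They are not counts, so depth is unknown and no counting interval is given. Because division by transcript length is not stated, levels were not compared between genes.

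Genes with a mean total value of 5 or more in both conditions (6064 of 7682) were fitted with limma 3.58.1 in R 4.3.3, with a mean-variance trend, on log2(value + 1) or log2 half-life centred on the median gene, 2 siRNA against 2 mock columns, with Benjamini-Hochberg adjustment across the 6064 genes at 0.05. The fit was tested on simulated data. Half-lives were recomputed by first-order decay with fraction weights from total least squares (Pearson correlation with the deposited log2 values 0.968 to 0.982 over genes). Sequences were aligned with Biopython 1.88 using GENCODE v29 transcripts.

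The members and gene lists were chosen with earlier results of these data known. Named genes are UBE2MP1, MOV10, the genes of the NEDD8 list in the table and pathway genes that passed limma in half-life or total RNA. Also named are the 5 genes most like UBE2MP1 and pseudogene rows with a parent row. ZCCHC12, CAND1, the other pseudogene rows named and the marker genes were named after their values were seen. Of 16 markers of other cell types 2 had a row (HBA1 and ACTA2), and of 5 genes described in HEK293 cells NEFL and VIM had one. The numbers of the replicate columns were not taken as pairs (correlation of deviations -0.0691 to 0.111 over genes). Alternatives were the pseudocount, the expression minimum, centring, the variance trend, a replicate block, recomputed half-lives and each column left out.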

Additional observations from a re-analysis of the deposited data

How the results depend on the processing

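The log2 change of UBE2MP1 kept its sign under every alternative run. It moved by more than the spread between columns only without centring, to -1.59 in half-life and -0.35 in labelled RNA. With 1 column left out it ran from -1.91 to -1.66 in half-life, -2.02 to -1.86 in total RNA, -0.53 to -0.45 in labelled RNA and -2.42 to -2.36 in flow-through RNA, and in recomputed half-lives it was -1.84. The number of pathway genes called was less stable. In half-life (5 of 32) it was 2 with an expression minimum of 20, 2 with the replicate block, and 0 without centring (limma, 3 at an unadjusted 0.05), and 1 to 3 with 1 column left out. In total RNA (14 of 32) it was 9 with a minimum of 20, 6 without centring and 5 to 14 with 1 column left out. In labelled RNA (4 of 32) it was 1 to 4 with 1 column left out, and in flow-through RNA (14 of 32) 11 to 15. Fewer genes are tested with a minimum of 20 (24 pathway genes), and fewer columns measure the spread when 1 is left out. For the other changes the cause was not tested. With the replicate block the half-life calls of CUL4A, COPS2 and KLHL12 were lost (limma, Benjamini-Hochberg adjusted p = 0.0501, 0.0517 and 0.0824), and 17 pathway genes passed in total RNA. The replicate numbers are only numbers. With 2 columns a condition and no counts, depth sets no stated limit on these values.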

Other observations

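Of the 7682 symbols, 7022 (91.4%) matched a RefSeq symbol of GRCh38.p14, and 20 of these are typed there as pseudogenes, 13 of them past the expression minimum. The 12 rows besides UBE2MP1 had log2 changes from -0.27 to 0.24 in total RNA (median 0.04), from -0.34 to 0.48 in half-life (median 0.06), from -0.32 to 0.45 in labelled RNA and from -0.46 to 0.35 in flow-through RNA. ORAI1, a calcium channel gene that is typed as a pseudogene on this assembly, sets the upper end in total RNA and the lower end in flow-through RNA. GABARAPL3 has the highest half-life change (0.48) and PA2G4P4 the highest labelled change (0.45).

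In 4 pairs both the pseudogene and its parent by symbol passed the minimum, and their changes in total RNA differed by 0.12 or less. RPL13AP20, a copy of the ribosomal protein gene RPL13A, had mock values of 166.2 and 165.7 and siRNA values of 175.2 and 164.9 in total RNA, a change of 0.05 beside 0.08 in RPL13A. RPL13AP5, a second copy, was at 0.05 as well. SLC7A5P1 was at 0.13 and the amino acid transporter gene SLC7A5 at 0.25, and PI4KAP1 was at -0.11 and the lipid kinase gene PI4KA at -0.05. Other measures lay further apart, with half-life changes of 0.14 in PI4KAP1 and -0.27 in PI4KA, and labelled changes of -0.15 against 0.09 there and of -0.30 against -0.09 in SLC7A5P1 and SLC7A5. These differences were not tested. How reads that match both a copy and its parent were assigned is not stated for these pairs either, so their rows may share reads.

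UBE2MP1 is 1 of 4 pseudogene rows past the minimum whose coding parent by symbol has no row, out of 9 whose symbol names such a parent. The others were PA2G4P4, RPLP0P2 and RPL32P3. In total RNA, PA2G4P4 was at 242.3 and 260.4 against 216.1 and 204.8 (mock first), and RPLP0P2 at 2061 and 2322 against 2346 and 2339. RPL32P3 was at 11.52 and 11.34 against 11.56 and 11.57. Rows are missing elsewhere too, as 37 of the 53 pathway genes had one.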
